A study of Mus musculus with 6 samples.

Results

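Red cell precursors end their development by condensing and expelling the nucleus and by clearing mitochondria and other organelles. The 10 genes described here act in, or mark, that phase. They are Xpo7, Trim58, Trim10, Hemgn, Mxi1, Foxo3, Cpeb4, Bnip3l, Tmcc2 and Fn3k. They were chosen by name, and every array probe carrying the current or a former symbol was taken. That gave 24 of the 45281 probes on the array. A probe was kept where its detection p, which compares it with negative control beads, stayed under 0.05 in 3 or more of the 6 hybridisations. Of the 24 probes 14 were kept, and each of the 10 genes had at least 1. A gene kept through 1 group alone would have to differ between groups, but of the 14 kept probes only the second Fn3k probe was detected on clearly more control than double transgenic arrays, 3 against 1.

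RNA came from whole fetal liver of mouse embryos of strain C57/Bl6:129Sv at embryonic stage E13.5, hybridised to 6 Illumina bead arrays. The 3 double transgenic livers carried R26-LSL-KITD816V together with Vav-iCre. In this allele a mutant KIT receptor sits in the Rosa26 locus behind a stop cassette that Cre removes. Vav drives Cre in blood cells, and whether Cre acted in other liver cells was not tested. The 3 controls carried a single transgene, Vav-iCre in control replicate 1 and R26-LSL-KITD816V in control replicates 2 and 3. Whether the 6 RNAs came from separate embryos or litters is not stated, so the spread behind each p-value may be technical. All arrays sat on 1 chip with controls on the first positions, so chip position and group cannot be told apart.

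In mouse fetal liver, definitive erythroblasts mature on macrophages until they extrude the nucleus. XPO7 is a nuclear export receptor used while the nucleus condenses. MXI1 opposes MYC, whose decline accompanies condensation. TRIM58 is a ubiquitin ligase of late erythroblasts that acts on dynein, and BNIP3L (NIX) is the receptor through which autophagy removes mitochondria. FOXO3 is a transcription factor of maturing erythroblasts, and CPEB4 is an RNA-binding translational regulator of the same stage.

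Between the groups, 3 of the genes lay far lower in the double transgenic livers and Trim10 lay about 1 log2 unit lower, while the other 6 did not pass. Xpo7, Tmcc2 and Fn3k stood at 16.2%, 17.8% and 19.2% of their control level, and Trim10 at 49.9%. The genes that did not pass included the mitophagy receptor gene Bnip3l and the transcription factor gene Foxo3. Counted by the brightest kept probe, 4 of 10 genes fell and none rose at an adjusted p below 0.05 in limma's fit over all 17855 kept probes (by unadjusted p as well, no gene rose below 0.05 while 4 fell). Over all 12262 genes with a kept probe 8.64% were called, of which falls made 6.29% and rises 2.35% of all genes. By probes, 7 of the 14 kept ones fell, against 8.10% called over all kept probes, with 5.78% lower and 2.32% higher. The groups did not overlap, with all double transgenic arrays lower, for the 4 genes that fell, and the same was true of 13.7% of all genes. The 10 genes were picked with earlier results of this contrast known, among them the falls of Xpo7, Tmcc2 and Fn3k, so the count describes them and nothing is read from it. Those 3 genes are given without a p-value. In whole liver, fewer cells of a type and less RNA per cell cannot be told apart.

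**Figure D1:**
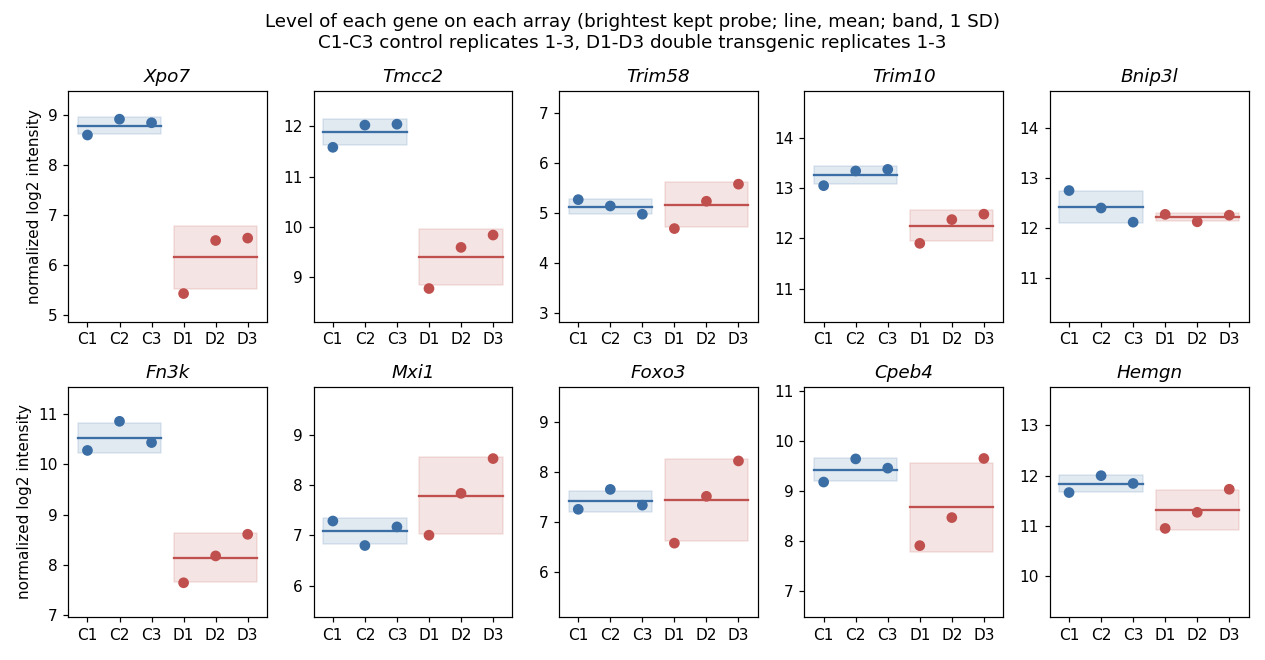
Normalized log2 intensity of each gene's brightest kept probe on the 3 control arrays (blue, C1 to C3) and the 3 double transgenic arrays (red, D1 to D3), with the group mean as a line and 1 SD as a band. Each panel spans the same number of log2 units. Xpo7, Tmcc2, Fn3k and Trim10 show no overlap between groups, and the double transgenic arrays spread widely for Foxo3, Mxi1 and Cpeb4.

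Xpo7 had normalized log2 intensities of 8.60, 8.91 and 8.84 on control replicates 1 to 3 and of 5.44, 6.49 and 6.54 on double transgenic replicates 1 to 3. Every double transgenic array lay more than 2 log2 units below every control array. The difference of group means, double transgenic minus control, was -2.63 (SE 0.30, n = 3 per group). A second kept probe gave 8.50, 8.75 and 8.82 in controls and 5.96, 6.20 and 6.40 in double transgenic livers, a difference of -2.50 (SE 0.20). Both probes thus moved alike. In double transgenic replicate 1 the unnormalized Xpo7 signal of 157 was close to the background. The size of the fall depends on how background is removed, since without background correction, and in the authors' deposited value table, it was -1.55. Only 69 of the 12262 genes had a lower difference than Xpo7.

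Tmcc2, which encodes an endoplasmic reticulum membrane protein with coiled coils, stood at 11.58, 12.03 and 12.04 in controls and at 8.77, 9.59 and 9.83 in double transgenic livers. The groups were separated by 1.75 log2 units at their nearest values. The difference was -2.49 (SE 0.29), carried by 1 probe, which was detected on every array.

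Fn3k encodes fructosamine 3-kinase, which removes sugars bound to proteins such as hemoglobin. Its levels were 10.28, 10.86 and 10.44 in controls and 7.64, 8.18 and 8.61 in double transgenic livers, again without overlap. The difference was -2.38 (SE 0.28). A dimmer second probe, detected on all 3 control arrays and 1 of the 3 double transgenic arrays, differed by -1.37 (SE 0.22). Averaging both probes gave -1.87.

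Trim10 is a tripartite motif gene known from late red cell differentiation. Its levels were 13.05, 13.34 and 13.38 in controls and 11.90, 12.38 and 12.48 in double transgenic livers. The lowest control stood 0.57 above the highest double transgenic array. Trim10 fell by 1.00 (SE 0.22, adjusted p = 0.0236), and its second kept probe fell by 1.15 (SE 0.23, adjusted p = 0.0163). The call of the brighter probe was lost without control replicate 2 (adjusted p = 0.106), control replicate 3 (adjusted p = 0.101) or double transgenic replicate 2 (adjusted p = 0.0642), over a range of adjusted p from 0.00269 to 0.106 in all alternatives.

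Promoter sequences from RefSeq (GRCm38.p6) were at hand for 7 of the 10 genes, namely Tmcc2, Hemgn, Foxo3, Cpeb4, Trim58, Trim10 and Mxi1, and the 250 bases before each annotated start were searched. Motifs of erythroid and stress regulators were read on both strands: AGATAA or TGATAA with either A or G as the last letter for GATA factors, CCNCNCCC for KLF factors, CANNTG for E-box proteins, GTAAACA for forkhead factors, and ACGTG and GCGTG for HIF. No GATA match in these windows overlapped another, and the HIF words can fall within an E-box. The windows below show 2 genes that fell, Tmcc2 and Trim10, beside Hemgn, which did not pass, with GATA matches in capitals.
Tmcc2, chr1:132367949-132368198, minus strand: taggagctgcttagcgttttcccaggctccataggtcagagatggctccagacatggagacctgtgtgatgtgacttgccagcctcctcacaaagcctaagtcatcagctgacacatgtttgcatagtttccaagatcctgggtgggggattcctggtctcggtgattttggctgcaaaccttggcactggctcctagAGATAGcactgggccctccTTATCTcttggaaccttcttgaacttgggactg
Trim10, chr17:36869324-36869573, plus strand: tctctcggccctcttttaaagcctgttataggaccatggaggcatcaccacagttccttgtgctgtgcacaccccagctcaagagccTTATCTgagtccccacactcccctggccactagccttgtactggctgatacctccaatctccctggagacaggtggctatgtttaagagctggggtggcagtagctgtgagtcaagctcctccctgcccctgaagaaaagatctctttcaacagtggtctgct
Hemgn, chr4:46404184-46404433, minus strand: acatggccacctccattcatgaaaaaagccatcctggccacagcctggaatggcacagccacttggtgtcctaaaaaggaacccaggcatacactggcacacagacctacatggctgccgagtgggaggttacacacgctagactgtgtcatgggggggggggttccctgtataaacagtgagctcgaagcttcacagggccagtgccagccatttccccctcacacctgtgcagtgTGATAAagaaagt
The Tmcc2 window shown, at 1 of its 3 annotated starts, held 2 GATA matches, from 52 to 47 and from 33 to 28 bases before the start, and its other 2 windows held none. Trim10 held 1 GATA match at 163 to 158 bases before the start, and Hemgn held 1 at 13 to 8 bases. Trim58 also held 1. In all, 4 of the 11 windows, each of a different gene, had a GATA match, as do 26.5% of 32851 mouse promoter windows of the same length. The windows of Foxo3, Cpeb4 and Mxi1 held none. A forkhead match was present in 1 Mxi1 window, against 3.17% of all windows. KLF words occur in 45.9%, E-boxes in 66.2% and HIF words in 38.6% of all windows. With overlapping words counted, the windows shown held 1 KLF word for Tmcc2, none for Trim10 and 4 for Hemgn. They held 2, 1 and 2 E-boxes in the same order, and only that of Hemgn held a HIF word. These are matches of letters only, and GATA words stood in genes that fell and in genes that did not pass.

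Hemgn encodes hemogen, a nuclear protein of blood cells. Its levels were 11.66, 12.00 and 11.84 in controls and 10.95, 11.27 and 11.73 in double transgenic livers. Double transgenic replicates 1 and 2 lay below all controls, and replicate 3 lay within them. The difference of -0.52 (SE 0.24, adjusted p = 0.238) did not pass. Its 95% confidence interval ran from -1.05 to 0.01.

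Cpeb4 showed the widest spread of the 10 genes among double transgenic arrays. Its levels were 9.18, 9.64 and 9.46 in controls and 7.91, 8.47 and 9.65 in double transgenic livers, so replicate 3 was as high as the highest control. The difference was -0.75 (SE 0.39, adjusted p = 0.311). Without double transgenic replicate 3 it was -1.23 and passed (adjusted p = 0.0383), and its adjusted p ran up to 0.576 in other alternatives. The second kept Cpeb4 probe was detected on 1 control and 2 double transgenic arrays and differed by -0.02 (SE 0.31).

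Mxi1 had the highest difference of the 10 genes. It stood at 7.29, 6.80 and 7.17 in controls and at 7.01, 7.84 and 8.53 in double transgenic livers. Replicates 2 and 3 lay above every control, and replicate 1 lay among them. The difference of 0.71 (SE 0.36, adjusted p = 0.287) did not pass. It passed without double transgenic replicate 1 (1.10, adjusted p = 0.0367), with array weights (1.02, adjusted p = 0.0235) and when both arrays numbered 1 were dropped (1.20, adjusted p = 0.0455), and adjusted p was at most 0.601 elsewhere.

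Foxo3 had levels of 7.26, 7.65 and 7.34 in controls and of 6.58, 7.51 and 8.22 in double transgenic livers. Replicate 1 was below and replicate 3 above all controls, so the mean difference of 0.02 (SE 0.37, adjusted p = 0.98) covers a range of 1.64 log2 units. The 95% confidence interval ran from -0.82 to 0.86, so a change of either sign within it remains possible with 3 arrays per group.

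Bnip3l stood at 12.74, 12.40 and 12.11 in controls and at 12.27, 12.12 and 12.25 in double transgenic livers, all within the control range. The difference was -0.20 (SE 0.21, adjusted p = 0.624), with a 95% confidence interval from -0.68 to 0.27. Falls of the size seen in Xpo7, Tmcc2 and Fn3k lie outside that interval.

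Trim58 could not be measured. Its kept probe had signals between 131 and 165 on the 6 arrays and was detected on 1 control and 2 double transgenic arrays, and its other 2 probes were not kept. This probe and the second Cpeb4 probe, each detected on 3 arrays, lay just inside the rule for keeping a probe. An Xpo7 probe detected on 2 arrays, with signals of 129 to 166, lay just outside. The fitted Trim58 difference of 0.04 (SE 0.25) therefore describes values near the background.

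**Figure D2:**
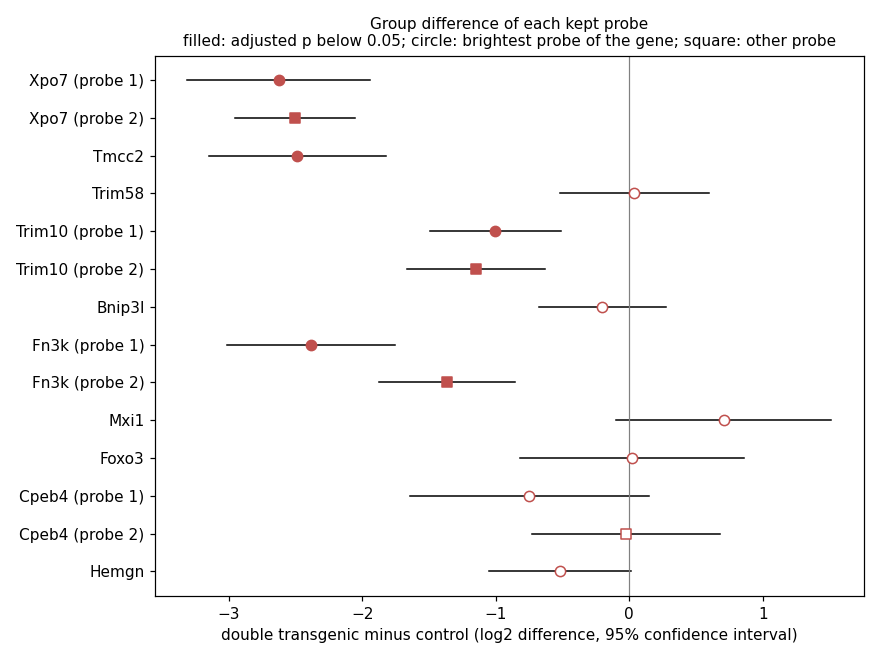
Difference between group means, double transgenic minus control, in log2 units for the 14 kept probes, with 95% confidence intervals. Filled symbols mark an adjusted p below 0.05, circles the brightest probe of a gene and squares other probes. All 7 kept probes of Xpo7, Tmcc2, Trim10 and Fn3k lie below 0, and the other 7 intervals cross 0.

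Within the double transgenic group the genes shared an order of arrays that the choice of genes did not use. Replicate 1 was the lowest double transgenic array for 9 of the 10 genes and replicate 3 the highest for 9 of 10, with Bnip3l as the exception both times. Trim58, whose values were near the background, is counted among the 9 both times. Over all genes, replicate 1 was lowest in 37% and replicate 3 highest in 28.9%. The median range between double transgenic arrays was 1.02 log2 units for the 10 genes against 0.43 between controls, and 0.52 against 0.45 over all genes. The same order appeared in the mean level of 22 measured red cell membrane and hemoglobin genes, at 11.33, 11.71 and 11.90 on double transgenic replicates 1 to 3, against 12.02 to 12.18 in controls. It was not particular to that list, since the means of the ubiquitin and proteome remodelling, mitophagy, FOXO target, MYC and MAX and relatives lists had the same order. The nuclear condensation, importin and exportin, erythroid regulator and other marker lists had other orders. The hepatoblast means, for example, ran the other way, at 10.62, 9.97 and 9.76 on double transgenic replicates 1 to 3. The part of this array order in the spread of the 10 genes was not tested. Without double transgenic replicate 1 the differences of Xpo7, Tmcc2 and Fn3k were -2.27, -2.17 and -2.13.

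**Figure D3:**
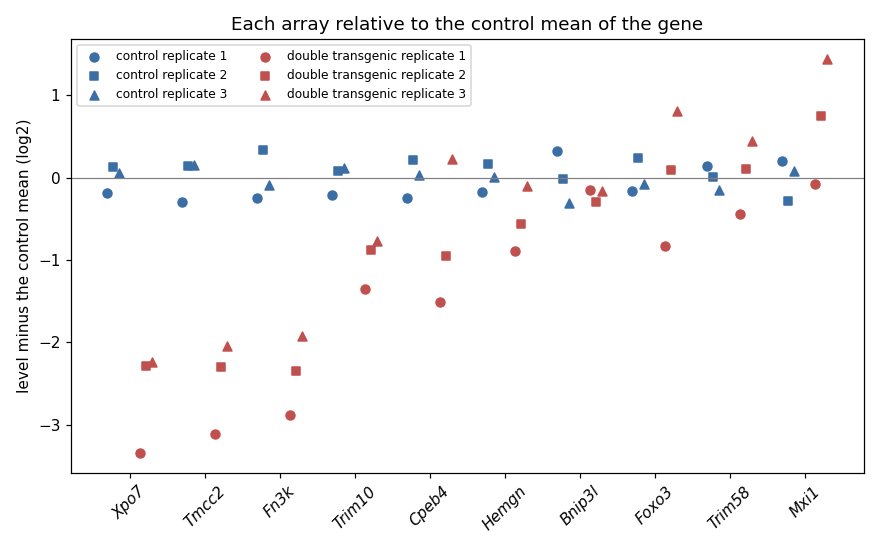
Level of each gene on each array minus the gene's control mean, in log2 units, with controls in blue and double transgenic livers in red and a symbol for each replicate. Genes are ordered by their difference. The red circle, replicate 1, is the lowest red symbol for 9 genes and the red triangle, replicate 3, the highest for 9 genes, while the circle of Xpo7 lies more than 3 units below 0. Trim58, near the background, is among the 9 both times.

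The controls of both genotypes were also compared, a contrast on which the genes had not been chosen. In limma's fit of 3 genotypes none of the 10 genes passed between the Vav-iCre control and the R26-LSL-KITD816V controls, and none had an unadjusted p below 0.05, against 9.48% of all genes. Of the 17855 probes none passed. Differences ran from -0.45 (SE 0.43) for Tmcc2 to 0.49 (SE 0.27, unadjusted p = 0.104) for Bnip3l. The lone Vav-iCre array was assumed to vary like the others, which limits what this comparison can detect.

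Regulators and structural genes of red cells were read beside the 10 genes. Of 14 measured erythroid regulators none passed in limma's fit (8 had an unadjusted p below 0.05), and their median difference was 0.39, against 0.07 over all genes. In either direction, the groups did not overlap for 7 of the 14, against 28.5% of all genes. The differences of the 14 ran from -0.65 for Tal1 to 0.91 for Stat5a. Between these lay Gata1, Klf1 and the erythropoietin receptor gene Epor at 0.00, -0.11 and 0.15, all 5 genes being named after their values were seen. Of the 22 red cell membrane and hemoglobin genes 2 fell, 19 had lower means and the median was -0.43. Their summed intensity was 206100 to 219500 in controls and 142700 to 178800 in double transgenic livers. The brightest probes weigh most in this sum. Among them, Hba-a1 and Hbb-b1 had group means of 14.92 to 14.99, near the largest log2 value of 15.27. Whether probes this bright can still show a rise was not tested. Whether the 10 genes differ from these lists was not tested. Markers of other cells moved in the same livers. All 15 measured hepatoblast genes fell, with a summed intensity of 128100 to 158800 in controls and 31510 to 53510 in double transgenic livers. Of 15 macrophage genes 10 fell, with sums of 14960 to 15210 against 6124 to 8490. Of 10 megakaryocyte genes none passed in limma's fit (1 had an unadjusted p below 0.05), 1 of 9 neutrophil and mast cell genes and 1 of 9 endothelial genes fell, and 1 of 8 stem and progenitor genes rose. No measured marker of the red cell, hepatoblast or macrophage lists was undetected on all double transgenic arrays. Their part in the falls of Xpo7, Tmcc2, Fn3k and Trim10 was not tested.

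Around these 10 genes, 148 measured genes of related pathways held 12 falls and 3 rises, which is 8.11% and 2.03% of them and near the share over all genes. With the replicate number as a block the count was 30, of which 11 were rises, and it was 7 without control replicate 2, control replicate 3 or double transgenic replicate 2. The list of ubiquitin enzymes and remodelling of the late red cell proteome, not all of them enzymes, had 5 falls among 20 genes. It had no rise, and its median was -0.23. Ube2l6 and Ube2h, both ubiquitin-conjugating enzymes, fell by 1.46 (SE 0.20, adjusted p = 0.00267) and 1.19 (SE 0.19, adjusted p = 0.00619). Ube2h stood at 10.66, 10.62 and 10.66 in controls and at 9.21, 9.45 and 9.71 in double transgenic livers. Ypel4, of the same list, fell by 2.05 (SE 0.40, adjusted p = 0.014), a call lost without control replicate 2 or 3 (adjusted p up to 0.0558). The Ypel4 call was also lost without the filter on dim probes (adjusted p = 0.0761). Without background correction Ypel4 was at -1.26.

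Of the genes whose products, like MXI1, pair with MAX against MYC, the 3 measured Mxd genes fell, while Mnt and Mga stood at -0.14 and -0.01. Mxd3 fell by 1.32 (SE 0.21, adjusted p = 0.00593), Mxd4 by 1.08 (SE 0.18, adjusted p = 0.00634) and Mxd1 by 1.78 (SE 0.42, adjusted p = 0.035). Mxd1 stood at 8.69, 8.98 and 9.06 in controls and at 6.47, 6.68 and 8.25 in double transgenic livers. Its call was lost without any single array other than double transgenic replicate 3 (adjusted p up to 0.13). A second Mxd4 probe stood at -0.42. Without background correction Mxd3 was at -0.67 and Mxd1 at -1.16. Whether Mxi1 and these genes differ in their change was not tested. With Mlxipl, a carbohydrate-responsive factor of liver that fell by 1.77 (SE 0.33, adjusted p = 0.0127, and 0.0531 to 0.0559 without control replicate 3 or double transgenic replicate 2 or 3), 4 of 11 genes of the MYC and MAX network fell. Without background correction Mlxipl was at -0.91, and without the filter on dim probes its call was lost (adjusted p = 0.063). Myc itself was at 0.49 (SE 0.33, adjusted p = 0.443), with overlapping groups.

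Of 29 genes of nuclear condensation and enucleation 1 fell, with a median of 0.00. It was E2f2, a cell cycle factor needed for late erythroblast exit from the cycle, at -1.09 (SE 0.28, adjusted p = 0.0456), lost without control replicate 2 or 3 or double transgenic replicate 1 or 2 (adjusted p up to 0.176). The call was also lost with median scaling, without a filter on dim probes, with the stricter filter and with the mean of its kept probes (adjusted p 0.0532 to 0.121), and its 4 kept probes ran from -1.16 to -0.23. None of 25 importin, exportin and RAN genes passed in limma's fit (2 had an unadjusted p below 0.05). The other measured exportin genes with such a name, Xpo1, Xpo4, Xpo5, Xpo6 and Xpot, stood at -0.25, 0.51, 0.25, 0.40 and 0.45. The Xpo1 probe was detected on 2 control arrays and 1 double transgenic array, so its difference describes values near the background. Of 29 genes of mitophagy and autophagy 1 rose, with a median of 0.09. It was Optn, an autophagy receptor gene, at 1.25 (SE 0.19, adjusted p = 0.00456), and its second kept probe stood at 0.45. Of 14 FOXO targets 2 rose and 1 fell, with a median of 0.24. Klhl24 rose by 1.26 (SE 0.22, adjusted p = 0.00874), with a second probe at 0.07, and when its probes were averaged the call was lost (0.67, adjusted p = 0.0597). Klf9 rose by 1.18 (SE 0.25, adjusted p = 0.0222), a call lost without any 1 control or double transgenic replicate 2 (adjusted p up to 0.0924). The Klf9 call was also lost without the filter on dim probes, with the mean of its kept probes and without replicate 1 of both groups. A second Klf9 probe stood at 0.61. Sesn1 fell by 0.93 (SE 0.23, adjusted p = 0.0388), a call lost without any single array other than double transgenic replicate 1 (adjusted p up to 0.13). The Sesn1 call was also lost with median scaling and without the filter on dim probes, and its 3 kept probes ran from -0.93 to -0.47. Of 12 measured relatives of the 10 genes 4 fell, the 3 Mxd genes and Cpeb3, which fell by 0.82 (SE 0.20, adjusted p = 0.0417, and up to 0.18 without any single array other than double transgenic replicate 3). Without background correction and in the authors' deposited value table Cpeb3 stood at -0.38 and did not pass (adjusted p = 0.0655), nor did it with trend and robust moderation (0.0622) or without the filter on dim probes (0.0544).

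**Figure D4:**
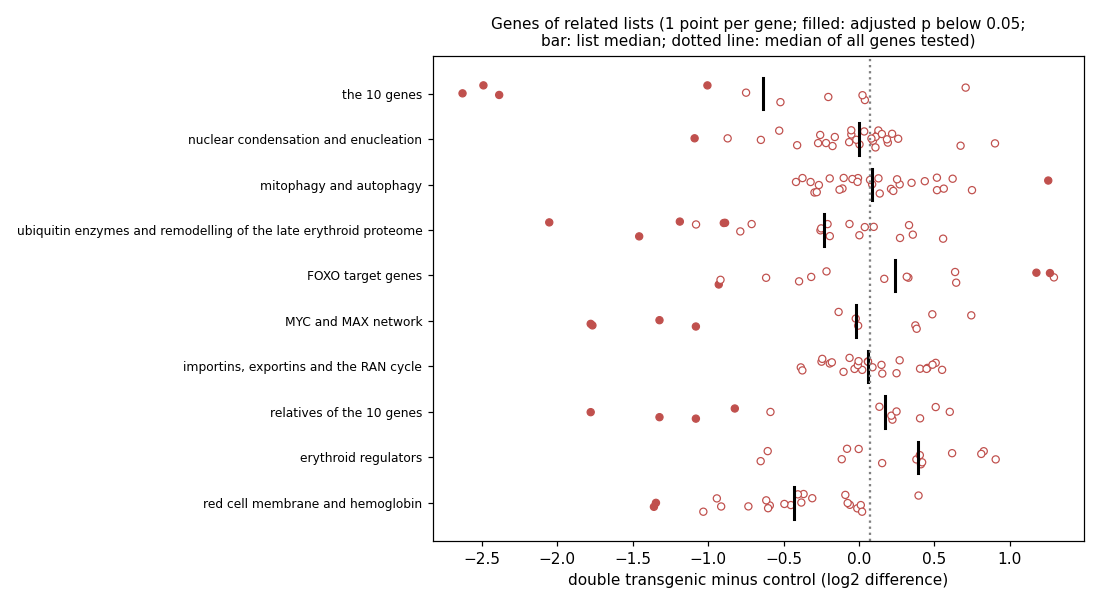
Difference between group means, double transgenic minus control, in log2 units for each measured gene of 9 lists beside the 10 genes. Filled points mark an adjusted p below 0.05, the bar is the list median and the dotted line the median of all genes, 0.07. The median of the 10 genes is -0.63, and the importin and exportin and erythroid regulator lists hold no filled point.

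The genes outside the lists whose levels followed the falls most closely were found by the root mean square difference over the 6 arrays, each level taken from its gene's control mean. The nearest to Xpo7 was Snx22, a sorting nexin gene, at 0.20 log2 units, and the nearest to Tmcc2 and to Fn3k was Fam214b, at 0.16 and 0.13. The nearest to Trim10 was Carhsp1, at 0.07. The macrophage receptor gene Marco came close to Tmcc2, at 0.25. The measure rests on 6 arrays and mainly on the group difference.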

How the data were processed

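The authors deposited a table with an unnormalized signal intensity and a detection p-value for each probe and array, per the file headers, and a second table of intensity values. The software was GenomeStudio, per the submitters' processing notes; no version is known. The second table differed from a quantile normalization of the first by at most 0.303%, so it was read as linear and quantile normalized.

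Analysis used limma 3.58.1 under R 4.3.3, with neqc background correction (negative controls inferred from detection p, offset 16), quantile normalization and log2. The fit (lmFit, eBayes, two-sided) covered all 17855 kept probes, with Benjamini-Hochberg adjustment over them. A gene was read from its kept probe with the highest mean. Symbols were updated through RefSeq, 27380 probes being current and 8359 updated. Named genes are the 10 genes, up to 3 called genes per list, called relatives, and the 3 nearest profiles. The genes, lists and tests were chosen with earlier results of these data known. The steps were tested on simulated data. Each array detected 38.1% to 39.5% of probes, and the number of arrays limits the precision.

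The titles number both groups 1 to 3. Deviations from group means correlated at 0.536, 0.283 and 0.206 between same-numbered arrays, and at -0.439 to 0.371 between others, so not every array was closest to its own number. The number was used as a block in an alternative. Others changed the background step, normalization, filter, probe rule, moderation, weights and arrays.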

Additional observations from a re-analysis of the deposited data

How the results depend on the processing

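The falls of Xpo7, Tmcc2 and Fn3k kept their direction under each of the 19 alternatives, at -2.82 to -1.55, -2.71 to -2.17 and -2.62 to -1.87 log2 units, and Trim10 kept its direction in all and passed in 16. The number of the 10 genes past the threshold was 3 to 5 when single arrays were left out, and none of the 10 was called between the control genotypes in the 11 alternatives run for that contrast (0 or 1 of them had an unadjusted p below 0.05). Foxo3 and Trim58 never passed, and their sign turned. Foxo3 was at -0.0859 with cyclic loess and between -0.37 and 0.45 without single arrays, with -0.06 without control replicate 1, -0.02 without control replicate 3, -0.01 when double transgenic replicate 2 was dropped and -0.37 when replicate 3 of that group was. Trim58 was at -0.0024 without background correction, -0.0025 in the authors' table, -0.04 without control replicate 3 and -0.17 without double transgenic replicate 3, with a range of -0.17 to 0.28. Over all probes the count of 1446 was 2379 with the replicate block, 3728 with array weights, 842 with the stricter filter on dim probes, 2473 without replicate 1 of both groups and 745 to 1840 without single arrays. The count of 15 pathway genes was 30 with the replicate block, 38 with array weights and 7 to 16 without single arrays. The block changed no call of the 10 genes. The causes were not tested. Probes near the background, among them those of Trim58 and the second probes of Cpeb4 and Fn3k, give no firm size of change.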
